A study of Mus musculus with 36 samples.

Results

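The IGF binding proteins are a family of secreted carriers of the insulin-like growth factors. The liver count table was searched by gene symbol for Igfbp1, Igfbp2, Igfbp3, Igfbp4, Igfbp5, Igfbp7 and Igfals, and each of the 7 symbols was found once among 38283 genes. The RNA came from livers of 36 male C57Bl/6J mice aged 16 weeks, 6 in each of 6 groups. Wild-type mice were compared with heterozygous Pik3r1 WT/Y657* knock-in mice, which carry a truncating allele of Pik3r1 beside the normal one. Pik3r1 encodes the regulatory subunits of phosphoinositide 3-kinase, the lipid kinase that relays insulin signals, and the human counterpart of the allele causes SHORT syndrome. Each genotype was sampled with chow available ad libitum (fed), at the end of a 16 h fast (fasted), and after such a fast with 6 h of renewed feeding (refed). All groups shared strain, sex, age and chow diet. The comparison of genotypes asks how a partial loss of insulin signalling through this kinase bears on the liver, and the feeding states ask whether its response to nutrients differs.

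In blood, most IGF1 travels in a complex of IGF1, IGFBP3 and the acid-labile subunit, the product of Igfals, which prolongs its life in the circulation. IGFBP1 and IGFBP2 form smaller complexes that leave the vessels. Igfbp1 is a textbook insulin-repressed gene of hepatocytes: forkhead factors of the FOXO family activate it in fasting, and insulin acting through phosphoinositide 3-kinase and AKT switches it off. Igfals is a hepatocyte gene induced by growth hormone through STAT5. Igfbp3 in rodent liver is made largely by sinusoidal endothelial and Kupffer cells, and Igfbp7, a low-affinity relative, is abundant in vascular endothelium. Measurements on whole liver cannot tell apart fewer cells of a type from less RNA per cell.

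The promoter sequences are shown for the members on which the results turn: Igfbp1, which moved most with feeding, Igfbp3, which was called between genotypes in 2 of 3 states, and Igfals, which rose on refeeding. They are the 250 bases before a RefSeq transcription start on GRCm38.p6, written 5′ to 3′ on the strand of the gene. Windows were matched by symbol for 7 of 7 members, 2 for Igfbp2 and 3 for Igfals. Capitals mark matches on either strand to CAAAACAA (the core of the insulin response element), GTAAACA (the forkhead consensus) or TTCNNNGAA (the STAT consensus, which reads alike on both strands). The lines are Igfbp1 at chr11:7197537-7197786 (+ strand), Igfbp3 at chr11:7213924-7214173 (- strand) and the window of Igfals with most matches, at chr17:24877981-24878230 (+ strand).
Igfbp1: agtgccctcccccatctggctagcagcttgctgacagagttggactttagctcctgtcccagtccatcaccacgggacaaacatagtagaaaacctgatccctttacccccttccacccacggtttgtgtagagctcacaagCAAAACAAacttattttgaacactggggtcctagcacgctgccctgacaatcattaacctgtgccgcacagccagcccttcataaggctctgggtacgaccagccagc
Igfbp3: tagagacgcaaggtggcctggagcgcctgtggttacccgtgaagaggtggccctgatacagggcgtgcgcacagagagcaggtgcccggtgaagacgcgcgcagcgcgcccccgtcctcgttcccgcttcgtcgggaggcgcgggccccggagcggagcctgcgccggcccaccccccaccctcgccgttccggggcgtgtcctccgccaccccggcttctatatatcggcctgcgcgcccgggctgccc
Igfals: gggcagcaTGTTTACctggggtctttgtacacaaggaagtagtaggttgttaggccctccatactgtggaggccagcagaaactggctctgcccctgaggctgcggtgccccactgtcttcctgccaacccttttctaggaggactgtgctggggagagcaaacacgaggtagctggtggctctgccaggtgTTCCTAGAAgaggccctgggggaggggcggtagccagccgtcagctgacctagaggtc

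In the Igfbp1 window the CAAAACAA match lay 108 to 101 bases before the start. In the Igfals window the forkhead letters lay 242 to 236 bases and the STAT letters 58 to 50 bases before the start, and another Igfals window held TTCTCAGAA 236 to 228 bases before its own start. No window of the other 5 members held any of the 3 motifs. Among 32536 distinct mouse promoter windows of this length, 2.23% held CAAAACAA, 3.17% held GTAAACA and 7.04% held TTCNNNGAA, so a match is a description and not a bound site.

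The 7 genes lie at 5 places. On GRCm38, Igfbp1 (ENSMUSG00000020429, chr11:7197782-7202546, + strand) and Igfbp3 (ENSMUSG00000020427, chr11:7206086-7213923, - strand) are neighbours that point towards each other with 3.54 kb between them. Igfbp2 (ENSMUSG00000039323, chr1:72824503-72852474, + strand) and Igfbp5 (ENSMUSG00000026185, chr1:72857932-72874884, - strand) form a second such pair, 5.46 kb apart. Igfbp4 (ENSMUSG00000017493) is at chr11:99041244-99054392, Igfbp7 (ENSMUSG00000036256) at chr5:77349240-77408041 and Igfals (ENSMUSG00000046070) at chr17:24865997-24882010. Igfbp7 overlaps Polr2b on the opposite strand, and the strand setting of the counting was not given in the sources used here.

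Counts assigned to genes ranged from 8839488 to 19542775 per library (median 13596666). Levels below are CPM, read counts scaled to a fixed library total after TMM correction for the make-up of each library. Every member was counted in every library, from 23 counts (Igfbp1 in a refed WT/Y657* mouse) to 23550 counts (Igfbp4). Pik3r1 mRNA itself was called in no genotype comparison, with 115 to 182 CPM in fed WT/Y657* mice and 119 to 158 CPM in fed wild-type mice, and since the allele truncates the protein, its level does not check the genotype labels. In each group the mice are called 1 to 6 here, in the order of the animal numbers in the labels. The animal numbers of fasted and refed mice formed a lower and an upper run, mice 1 to 3 and 4 to 6 of each group, whereas the numbers of the fed mice lay between these runs. The difference between fed and other mice cannot be told apart from that of the number runs. The paper collected tissues before the overnight fast, at its end or after refeeding. Feeding state thus cannot be told apart from the hour of collection either. Among fed mice, 5 neighbouring numbers held both genotypes (wild-type mice 5 and 6, WT/Y657* mice 1 to 3), and the other numbers followed genotype.

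Igfbp4 and Igfbp2 were the most abundant members and Igfbp3 and Igfbp5 the scarcest. Per kb of exon and over all 36 mice, Igfbp4 reached 256 ± 31.6 CPM per kb (SD) and Igfbp2 196 ± 83.8. Igfals and Igfbp7 followed at 45.8 ± 12.5 and 43.7 ± 7.94 CPM per kb, and then came Igfbp1 at 29.2 ± 42.9, Igfbp3 at 6.54 ± 3.01 and Igfbp5 at 1.34 ± 0.455. Of the summed level per kb, Igfbp4 held a mean of 38.7% (fasted WT/Y657*) to 50.7% (fed WT/Y657*), and Igfbp2 held 21.5% (fed WT/Y657*) to 42.9% (refed wild-type).

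The order was not fixed. In fed mice of both genotypes every Igfbp4 level lay above every Igfbp2 level, whereas in all 4 fasted and refed groups the mice overlapped, and in refed wild-type mice the mean of Igfbp2 (289 CPM per kb) was above that of Igfbp4 (271 CPM per kb). Igfbp1 ranged from the third highest mean in fasted WT/Y657* mice (88.8 CPM per kb) to 4.53 CPM per kb in refed wild-type mice, where its levels overlapped those of Igfbp3. Over the 36 mice Igfbp1 spanned a 211-fold range (1.67 to 352 CPM), compared with 1.75-fold for Igfbp4 and 2.06-fold for Igfbp7, and 4.04- to 4.91-fold for the other 4 members. Igfbp5 had the lowest mean in every group.

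**Figure D1:**
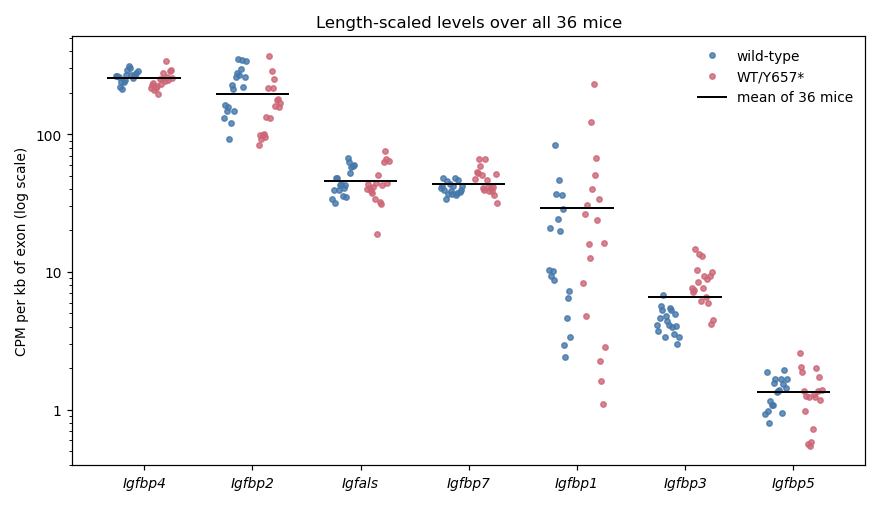
Level of each member per kb of exon (CPM per kb, log scale) in 36 mice, ordered by the mean, with wild-type mice left and WT/Y657* mice right of each centre and a line at the mean. Igfbp4 (256) and Igfbp2 (196) lie highest and Igfbp5 (1.34) lowest, and Igfbp1 is spread far more widely than any other member.

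Counts of members past an adjusted p of 0.05 (edgeR quasi-likelihood test, Benjamini-Hochberg over 13945 genes) are read against the share of all genes that passed. Between genotypes, 1 of 7 members was called in fed mice (Igfbp3, higher in WT/Y657*), where 2.37% of all genes were called. In fasted mice 2 of 7 were called (Igfbp3 higher, Igfbp5 lower), against 13.1% of all genes. In refed mice 0 of 7 were called by this test, against 0.0287% of all genes. There, 2 members had an unadjusted p under 0.05, and the likelihood ratio test and DESeq2 each called 1 (Igfbp3) and limma-voom called 0.

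Feeding moved more members. Fasting called 1 of 7 in wild-type mice (Igfbp2, against 32% of all genes) and 3 of 7 in WT/Y657* mice (Igfbp1 and Igfbp2 up, Igfbp5 down, against 32.9%). Refeeding after the fast called 2 of 7 in wild-type mice (Igfbp1 down, Igfals up, against 30.2%) and 3 of 7 in WT/Y657* mice (Igfbp1 down, Igfbp5 and Igfals up, against 31.3%). Refed against fed mice gave 3 of 7 in wild-type (27.5%) and 4 of 7 in WT/Y657* (26.1%). With 7 members, these shares do not set the family apart from all genes. The fasting response differed between genotypes for 1 of 7 members (Igfbp5), against 4.35% of all genes. The refeeding response differed for 0 of 7, against 2.06%, with 2 members at an unadjusted p under 0.05 and 0 called by the likelihood ratio test, DESeq2 or limma-voom. The comparisons share groups, so their calls are not independent of each other.

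**Figure D2:**
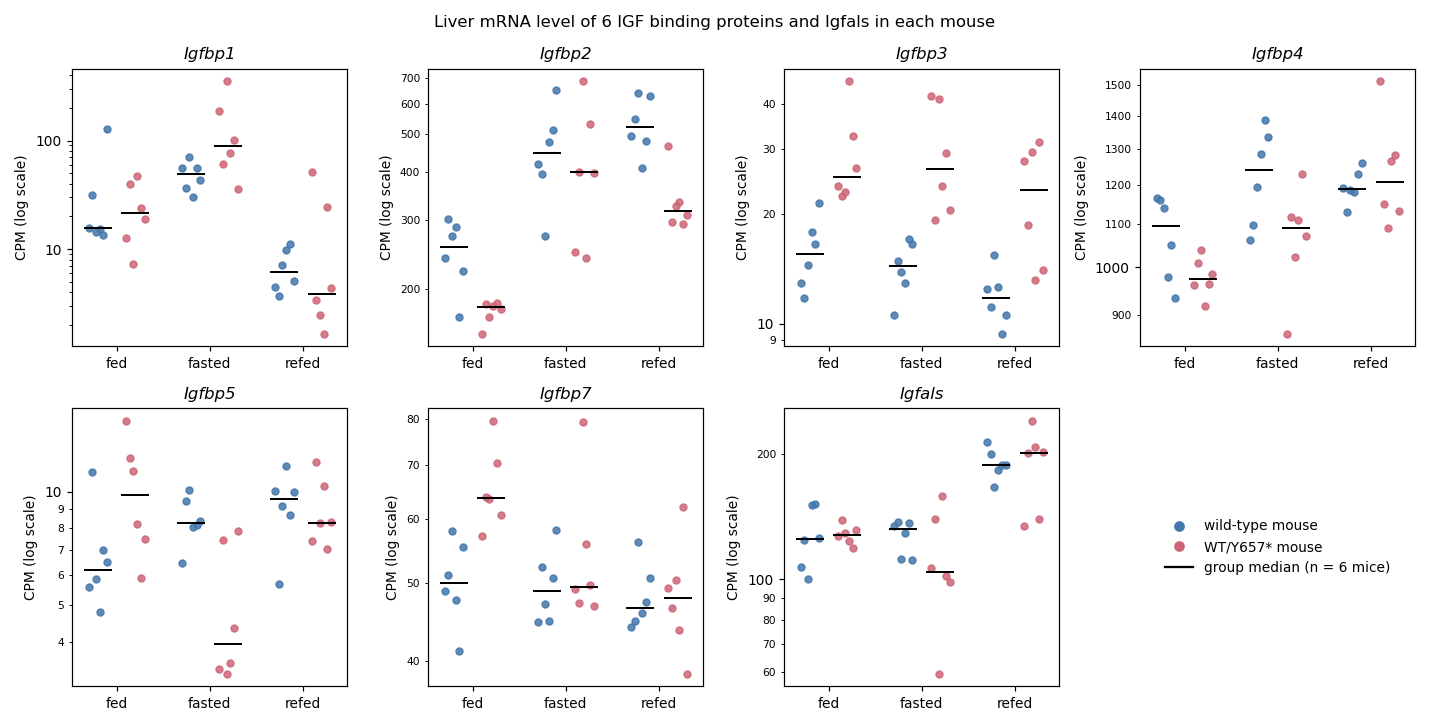
CPM (log scale) of each member in each of the 36 mice, by feeding state and genotype, with a line at the median of each group of 6. The genotypes do not overlap in Igfbp3 in fed and fasted mice, and in refed mice 4 of 6 WT/Y657* mice lie above all wild-type mice. Igfbp1 is lowest in refed mice, with 2 refed WT/Y657* mice at 24.6 and 51.9 CPM.

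Igfbp3, the main IGF carrier of the blood, was higher in fed and fasted WT/Y657* liver than in wild-type liver, and the refed difference had a like size but did not pass the edgeR threshold. In fed mice its lowest, median and highest levels were 22.4, 25.2 and 46.0 CPM in WT/Y657* and 11.8, 15.5 and 21.3 CPM in wild-type mice. In fasted mice they were 19.2, 26.5 and 42.0 CPM in WT/Y657* and 10.6, 14.4 and 17.1 CPM in wild-type mice. The genotypes did not overlap in either state. In refed mice the levels were 13.1, 23.2 and 31.3 CPM in WT/Y657* and 9.39, 11.8 and 15.4 CPM in wild-type mice, where 4 of 6 WT/Y657* mice lay above all wild-type mice.

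The log2 fold change (WT/Y657* minus wild-type) of Igfbp3 was 0.88 ± 0.22 (SE) in fed mice (1.84-fold, adjusted p = 0.0325), 1.04 ± 0.23 in fasted mice (2.06-fold, adjusted p = 0.00239) and 0.92 ± 0.23 in refed mice (1.89-fold, adjusted p = 0.177). The mean over the 3 states, a contrast chosen after these values were seen, was 0.95 ± 0.13 (adjusted p = 6.37e-05), against 11.1% of all genes called by the same contrast. It was called without each of the 36 mice in turn. No feeding comparison of Igfbp3 was called in either genotype, and the fasting response was -0.15 ± 0.23 (wild-type) and 0.02 ± 0.22 (WT/Y657*).

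Within the number runs, the Igfbp3 difference was 1.39 ± 0.30 in fasted mice of the lower run (adjusted p = 0.0042) and 0.66 ± 0.29 in those of the upper run (adjusted p = 0.305). In refed mice it was 0.98 ± 0.30 (adjusted p = 0.655) and 0.85 ± 0.29 (adjusted p = 0.385). Among the 5 fed mice with neighbouring numbers it was 0.28 ± 0.32, which is smaller than 0.88 by more than 1.5 times. The call in fed mice was lost without any 1 of 7 of the 12 mice (wild-type 1, 2, 3 or 5, WT/Y657* 4, 5 or 6), with log2 fold changes from 0.70 to 0.98 over all 12 fits.

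**Figure D3:**
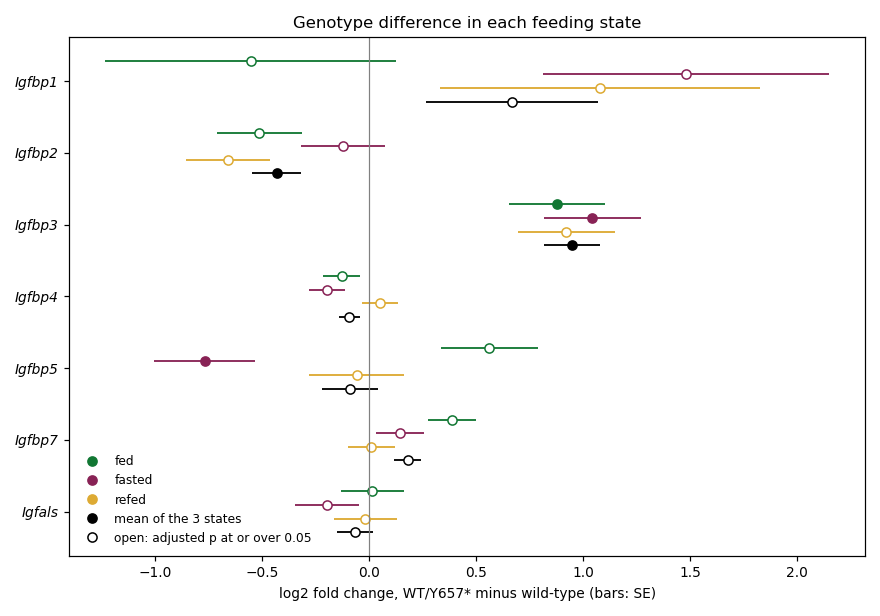
Log2 fold change (WT/Y657* minus wild-type, bars SE) of each member in fed, fasted and refed mice and their mean, filled where the adjusted p was under 0.05. Igfbp3 lies between 0.88 and 1.04 in all 3 states, whereas Igfbp5 is above 0 in fed and below 0 in fasted mice.

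The genes whose levels followed Igfbp3 most closely over the 36 mice were Esm1 (r = 0.88), Ntn4 (r = 0.86) and Angpt2 (r = 0.85), given here as a description. Esm1 (endocan) and Angpt2 (an antagonist ligand of the TIE2 receptor) are secreted products of activated endothelium, and Ntn4 is a laminin-related protein of vascular basement membranes. The correlations include the shared difference between genotypes, and after subtraction of the group means r was 0.65, 0.67 and 0.69. Esm1 measured 2.63 to 16.6 CPM in fed WT/Y657* and 0.454 to 2.57 CPM in fed wild-type mice. In fasted mice it measured 2.31 to 14.4 CPM and 0.21 to 1.51 CPM. Since these genes were picked by levels that hold the Igfbp3 genotype difference, their own genotype values are a description and not separate evidence. The log2 fold change of Esm1 between genotypes was 2.67 in fed mice (adjusted p = 0.0266), 3.30 in fasted mice (adjusted p = 0.00204) and 3.44 in refed mice (adjusted p = 0.146). In fed and fasted mice Ntn4 was higher by 1.04 (adjusted p = 0.0116) and 0.88 (adjusted p = 0.0075), and Angpt2 by 1.59 (adjusted p = 0.0269) and 1.59 (adjusted p = 0.00733). Angpt2 was scarce, at 1.08 to 4.63 CPM in fasted WT/Y657* and 0.346 to 1.98 CPM in fasted wild-type mice.

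**Figure D4:**
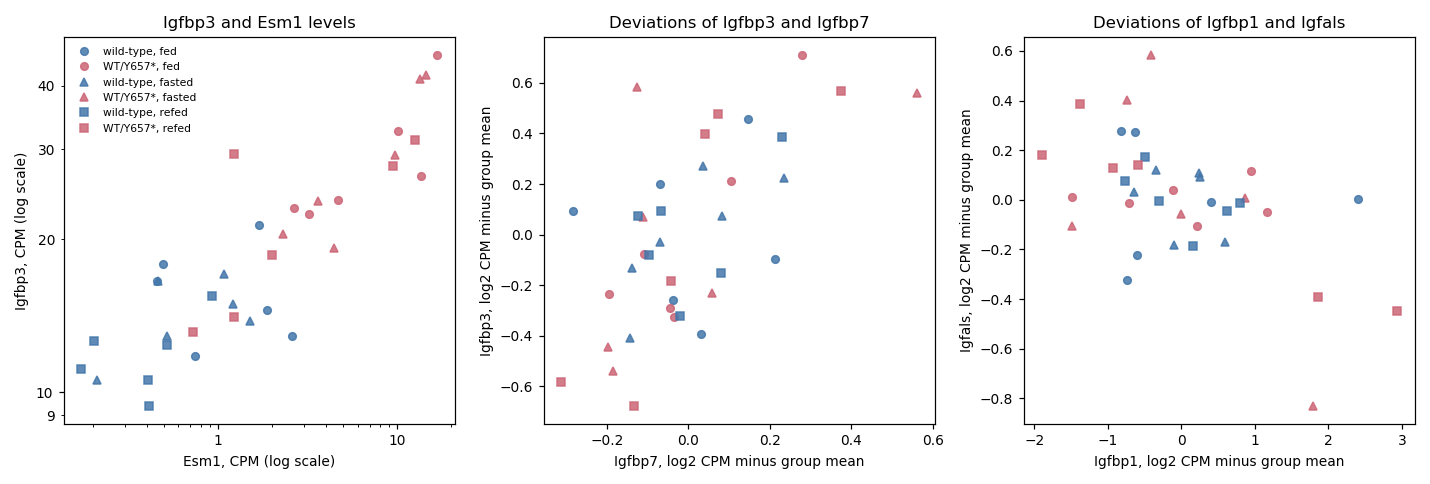
Left, Igfbp3 against Esm1 in each of 36 mice (CPM, log scales). Middle and right, deviations of log2 CPM from the group mean for Igfbp3 against Igfbp7 and for Igfals against Igfbp1. Igfbp3 and Igfbp7 deviate together (r = 0.63), and the mice with the lowest Igfals deviations have high Igfbp1 (r = -0.54).

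Some markers of the other cells of the liver were also higher in WT/Y657* mice. Of 8 endothelial markers, 0 were called in fed and refed mice and 1 in fasted mice (Lyve1, log2 fold change 1.32, adjusted p = 0.0218). The summed endothelial level was 379 to 480 CPM in fed WT/Y657* and 334 to 446 CPM in fed wild-type mice, 436 to 534 CPM and 456 to 516 CPM in fasted mice, and 372 to 409 CPM and 360 to 462 CPM in refed mice. Of 8 stellate and pericyte markers, 1 was called in fed mice (Colec11, 0.76, adjusted p = 0.00425) and 1 in fasted mice (Rgs5, 0.74, adjusted p = 0.0157), both higher in WT/Y657*. Their sum did not separate the genotypes and was 292 to 419 CPM in fed WT/Y657* and 222 to 305 CPM in fed wild-type mice, 299 to 408 CPM and 269 to 309 CPM in fasted mice, and 241 to 299.7 CPM and 234 to 312.5 CPM in refed mice. None of 6 Kupffer cell markers was called by the edgeR test in the 3 states, and their sum was 171 to 632 CPM in fed WT/Y657* and 181 to 256 CPM in fed wild-type mice, 224 to 380 CPM and 214 to 397 CPM in fasted mice, and 199.9 to 582 CPM and 185 to 414 CPM in refed mice. In the mean over the 3 states, 4 of 8 stellate, 2 of 6 Kupffer and 1 of 8 endothelial markers were higher in WT/Y657* mice and 0 lower. By the same contrast 1 of 7 fibroblast markers was higher and 1 of 8 hepatocyte markers lower, beside 11.1% of all genes called. The shares of all genes called in fed, fasted and refed mice were 2.37%, 13.1% and 0.0287%. Single calls among 8 markers in fasted mice or in the mean do not stand out from these shares. In fed and fasted mice, 1 of 7 fibroblast markers was higher in WT/Y657* mice (Dcn), 0 of 5 tested cholangiocyte markers were called, and of 8 hepatocyte markers 1 was lower in fasted mice (Cyp2e1). No marker of these lists was at 0 in all libraries. The part of these cell types in the Igfbp3 difference was not tested.

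Igfbp1, the insulin-repressed carrier, fell on refeeding in both genotypes, and its rise on fasting was called only in WT/Y657* mice. In wild-type mice its lowest, median and highest levels were 13.4, 15.5 and 126 CPM fed, 29.995, 49.5 and 71.0 CPM fasted, and 3.70, 6.11 and 11.1 CPM refed. In WT/Y657* mice they were 7.35, 21.7 and 46.7 CPM fed, 36.1, 89.2 and 352 CPM fasted, and 1.67, 3.90 and 51.9 CPM refed. Refed wild-type mice lay below all fasted and all fed wild-type mice. Refed WT/Y657* mice split into 4 at 1.67 to 4.37 CPM and 2, mice 5 and 1, at 24.6 and 51.9 CPM.

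Igfbp1 fell on refeeding by 2.79 ± 0.75 on the log2 scale in wild-type mice (6.90-fold lower, adjusted p = 0.00482) and by 3.19 ± 0.72 in WT/Y657* mice (9.12-fold lower, adjusted p = 0.000973). The refeeding response of mice in the lower number run was -3.44 (wild-type, adjusted p = 0.0266) and -3.36 (WT/Y657*, adjusted p = 0.014), and in the upper run -2.30 (adjusted p = 0.12) and -2.79 (adjusted p = 0.0575). Fasting raised Igfbp1 by 2.45 ± 0.69 in WT/Y657* mice (5.46-fold, adjusted p = 0.00694), where 5 of 6 fasted mice lay above all fed mice. In wild-type mice the fasting response was 0.42 ± 0.67 (adjusted p = 0.685). The wild-type fed mouse 6 stood at 126 CPM, with the other 5 at 13.4 to 31.7 CPM, and without it the response was 1.43 ± 0.66 (adjusted p = 0.106). Without fasted WT/Y657* mouse 3 the response of that genotype was 1.89 ± 0.68 (adjusted p = 0.0328).

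Igfbp1 was not called between genotypes in any state. The log2 fold change was -0.55 ± 0.68 in fed mice (adjusted p = 0.72), 1.48 ± 0.67 in fasted mice (adjusted p = 0.146) and 1.08 ± 0.75 in refed mice (adjusted p = 0.676). Without fed wild-type mouse 6 the fed value was 0.46, without fasted WT/Y657* mouse 3 (352 CPM) the fasted value was 0.92, and without refed WT/Y657* mouse 1 the refed value was 0.07, so single mice set these sizes. Without 4 mice picked for their high Igfbp1 (fed wild-type mouse 6, fasted WT/Y657* mouse 3, refed WT/Y657* mice 1 and 5) the refed value was -1.25, a description with no test, since the choice used these levels. The difference of the fasting responses was 2.03 (adjusted p = 0.234), and 1.02 without fed wild-type mouse 6 (adjusted p = 0.568). Refed against fed, Igfbp1 fell by 2.37 ± 0.74 in wild-type mice (adjusted p = 0.0168), a call that was lost without fed mouse 6 (-1.36, adjusted p = 0.161). In WT/Y657* mice it was -0.74 ± 0.70 (adjusted p = 0.473), and -1.75 without refed mouse 1 (adjusted p = 0.076).

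The genes most like Igfbp1 over the 36 mice were Slc7a2 (r = 0.83), a transporter of cationic amino acids, Ccng2 (r = 0.82), a cyclin known as a FOXO target, and 3110043O21Rik (r = 0.81). Within groups r was 0.54, 0.46 and 0.50. Slc7a2 and Ccng2, picked by these same levels, rose on fasting and fell on refeeding in both genotypes, which is a description and not separate evidence. On refeeding Ccng2 changed by -1.20 in wild-type (adjusted p = 9e-07) and -1.87 in WT/Y657* mice (adjusted p = 1.2e-10), whereas Slc7a2 changed by -1.42 (adjusted p = 2.32e-06) and -1.44 (adjusted p = 1.73e-06).

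Igfbp2, the second most abundant member, rose on fasting and stayed high on refeeding, unlike Igfbp1. In wild-type mice the lowest, median and highest levels were 169, 257 and 302 CPM fed, 274, 448 and 651 CPM fasted, and 409, 521 and 641 CPM refed. In WT/Y657* mice they were 153, 179 and 184 CPM fed, 241, 399 and 686 CPM fasted, and 293, 318 and 466 CPM refed. Every fasted and refed WT/Y657* mouse lay above every fed one.

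Fasting raised Igfbp2 by 0.87 ± 0.20 on the log2 scale in wild-type mice (adjusted p = 0.000918) and by 1.26 ± 0.20 in WT/Y657* mice (adjusted p = 8.32e-06). Refed against fed, it was higher by 1.10 ± 0.20 (adjusted p = 9.36e-05) and 0.95 ± 0.20 (adjusted p = 0.000514). From fasted to refed, neither the wild-type value (0.23 ± 0.20, adjusted p = 0.408) nor the WT/Y657* value (-0.31 ± 0.20, adjusted p = 0.249) was called. The calls for fasting and for refed against fed held without each mouse in turn.

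Between genotypes Igfbp2 was called in no single state. The log2 fold change was -0.51 ± 0.20 in fed mice (adjusted p = 0.152), -0.12 ± 0.20 in fasted mice (adjusted p = 0.743) and -0.66 ± 0.20 in refed mice (adjusted p = 0.249), where 5 of 6 WT/Y657* mice lay below all wild-type mice. The mean over the 3 states, a contrast chosen after the data were seen, was -0.43 ± 0.11 (adjusted p = 0.014). It called 11.1% of all genes. Within the number runs the refed value was -0.62 and -0.70, the fasted value 0.29 and -0.49, and the value in neighbouring fed mice -0.22. The closest genes over 36 mice were Tspan31 (r = 0.83), Psmd9 (r = 0.81), a proteasome assembly factor, and Ldha (r = 0.81), lactate dehydrogenase A. All 3 rose on fasting in both genotypes, a likeness that their choice by these levels favours.

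**Figure D5:**
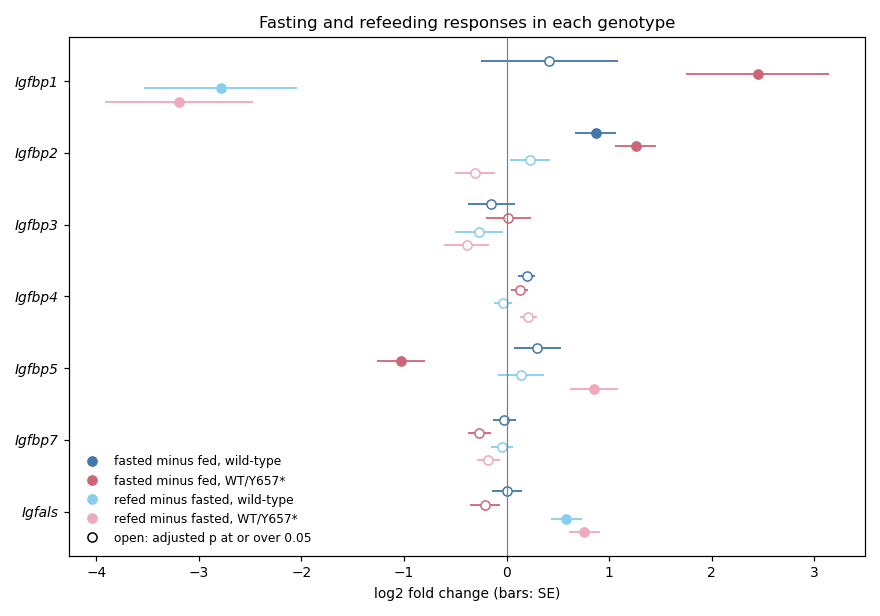
Log2 fold change (bars SE) of each member on fasting (fasted minus fed) and refeeding (refed minus fasted) in wild-type and WT/Y657* mice, filled where the adjusted p was under 0.05. Igfbp1 lies at -2.79 and -3.19 on refeeding, and Igfbp5 at -1.03 on fasting in WT/Y657* but 0.30 in wild-type mice.

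Igfals, which encodes the acid-labile subunit, rose on refeeding, opposite to Igfbp1. In wild-type mice the lowest, median and highest levels were 99.95, 125 and 152 CPM fed, 111, 132 and 137 CPM fasted, and 166, 188 and 214 CPM refed, with no overlap of refed mice with either other state. In WT/Y657* mice they were 119, 128 and 139 CPM fed, 59.4, 104 and 159 CPM fasted, and 135, 201 and 240 CPM refed. Refeeding raised Igfals by 0.58 ± 0.15 on the log2 scale in wild-type (1.496-fold, adjusted p = 0.00299) and by 0.76 ± 0.15 in WT/Y657* mice (1.69-fold, adjusted p = 0.00017). Within the lower number run the response was 0.58 (adjusted p = 0.0805) and 0.92 (adjusted p = 0.00508), and within the upper run 0.56 (adjusted p = 0.103) and 0.61 (adjusted p = 0.0782).

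Refed against fed, Igfals was higher by 0.58 ± 0.15 (adjusted p = 0.00338) and 0.55 ± 0.15 (adjusted p = 0.00592). Fasting alone was not called, with values of 0.00 ± 0.15 (wild-type) and -0.21 ± 0.15 (WT/Y657*). Genotype differences were 0.01 ± 0.15, -0.20 ± 0.15 and -0.02 ± 0.15 in fed, fasted and refed mice. Fasted WT/Y657* mouse 3, with 59.4 CPM, was the lowest of all 36, and mice 1 and 5 (135 and 140 CPM) were the lowest of the refed WT/Y657* mice. These are the mice with the highest Igfbp1 of their groups. The genes most like Igfals were Marcksl1-ps4 (r = 0.88), a pseudogene whose reads may belong to its parent gene, Akr1c19 (r = 0.87), an aldo-keto reductase, and Emc1 (r = 0.87), a subunit of the membrane protein insertion complex of the endoplasmic reticulum.

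Igfbp5, a carrier that also binds extracellular matrix, was the 1 member of 7 whose fasting response was called as different between genotypes. In wild-type mice the lowest, median and highest levels were 4.81, 6.20 and 11.3 CPM fed, 6.45, 8.27 and 10.1 CPM fasted, and 5.69, 9.57 and 11.7 CPM refed. In WT/Y657* mice they were 5.91, 9.77 and 15.4 CPM fed, 3.29, 3.94 and 7.86 CPM fasted, and 7.05, 8.27 and 11.997 CPM refed. In fasted WT/Y657* liver 4 of 6 mice lay below all wild-type mice, and the other 2 (mice 2 and 6) stood at 7.43 and 7.86 CPM.

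Fasting lowered Igfbp5 in WT/Y657* mice, where it fell by 1.03 ± 0.23 on the log2 scale (adjusted p = 0.000709), and in wild-type mice the value was 0.30 ± 0.23 (adjusted p = 0.34). The difference of these responses was -1.33 ± 0.33 (adjusted p = 0.0153). It was called under each of 10 other settings and without each of 24 mice in turn, from -1.53 to -1.17. Refeeding raised Igfbp5 in WT/Y657* mice by 0.85 ± 0.23 (adjusted p = 0.00487), and in wild-type mice the value was 0.14 ± 0.22 (adjusted p = 0.683). The genotype difference in fasted mice was -0.77 ± 0.24 (1.70-fold lower in WT/Y657*, adjusted p = 0.0257). That call was lost without any 1 of wild-type mice 2 and 3 or WT/Y657* mice 1, 3 and 4 (-0.73 to -0.67), and the values within the number runs were -0.92 ± 0.32 (adjusted p = 0.0707) and -0.64 ± 0.31 (adjusted p = 0.347). In fed mice the sign was the other way, 0.56 ± 0.23 (adjusted p = 0.173), and in refed mice the value was -0.06 ± 0.22.

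The closest genes to Igfbp5 were Cog5 (r = 0.75), a Golgi tethering subunit, Anxa11 (r = 0.75), a calcium-dependent phospholipid-binding protein, and Apol7a (r = 0.70). Within groups r was 0.60, 0.62 and 0.54. Since these genes were picked by levels that hold the fall of Igfbp5, their own values are a description and not separate evidence. In fasted mice the genotype difference was -1.03 for Apol7a (adjusted p = 0.00029) and -0.42 for Anxa11 (adjusted p = 0.000848). Their fasting responses differed between genotypes by -0.94 (adjusted p = 0.0286) and -0.40 (adjusted p = 0.0395).

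Igfbp7 and Igfbp4 varied least. Igfbp7 measured 57.2, 63.7 and 79.5 CPM (lowest, median and highest) in fed WT/Y657* and 41.1, 50.0 and 58.0 CPM in fed wild-type mice, and 5 of 6 WT/Y657* mice lay above all wild-type mice. The log2 fold change was 0.39 ± 0.11 (adjusted p = 0.0507), past the threshold under the likelihood ratio test (adjusted p = 0.0351), DESeq2 (adjusted p = 0.0293) and library size scaling (0.49, adjusted p = 0.00993), and not without a filter (adjusted p = 0.0724). Values were 0.14 ± 0.11 in fasted and 0.01 ± 0.11 in refed mice. Igfbp7 was lower in refed than in fed WT/Y657* mice, where it fell by 0.44 ± 0.11 (adjusted p = 0.00269), and the same comparison in wild-type mice gave -0.07 ± 0.11 (adjusted p = 0.71). On fasting in WT/Y657* mice the value was -0.27 ± 0.11 (adjusted p = 0.0604), and -0.40 ± 0.10 without fasted mouse 3 (adjusted p = 0.0015). The 79.3 CPM of this mouse stood apart from 46.8 to 56.0 CPM in the other 5. It was singled out by its own Igfbp7 level, so the value without it is a description and no test. Of 12 fits that each left out 1 mouse, 2 were called, with values from -0.40 to -0.21. The genes most like Igfbp7 were Sparc (r = 0.83), Lamb1 (r = 0.82) and Col14a1 (r = 0.81), all of the extracellular matrix. Of these Col14a1 was higher in fed WT/Y657* mice (0.65, adjusted p = 0.0148), a description, since the choice used these levels.

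Igfbp4, the most abundant member, lay between 863 and 1511 CPM in all 36 mice. It was higher in refed than in fed WT/Y657* mice, by 0.34 ± 0.08 on the log2 scale with no overlap (1092 to 1511 against 917.8 to 1040 CPM, adjusted p = 0.0028). The value in wild-type mice was 0.16 ± 0.08 (adjusted p = 0.163), and between genotypes -0.13, -0.20 and 0.05 in fed, fasted and refed mice, none called. On refeeding in WT/Y657* mice it was 0.21 ± 0.08 (adjusted p = 0.0519), a value that DESeq2 and limma-voom placed past the threshold. Its closest genes were Gjb2 (r = 0.76), a hepatocyte gap junction protein, Msrb1 (r = 0.76) and Acaa1a (r = 0.76), a peroxisomal thiolase.

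Members deviated from their group means together in some pairs. Of 21 pairs over 36 mice, 6 passed a permutation test within groups (100000 resamples, two-sided, Benjamini-Hochberg over the 21 pairs) for both Pearson's r and Spearman's rho. How often other pairs of liver genes pass was not tested, so this count does not set the family apart. Igfbp3 rose and fell with Igfbp7 (r = 0.63, p = 2e-04, adjusted p = 0.0042, rho = 0.58, p = 0.00091, adjusted p = 0.0191). Igfbp1 went with Igfbp3 (r = 0.58, p = 0.00357, adjusted p = 0.0297, rho = 0.50, p = 0.0098, adjusted p = 0.0406) and with Igfbp7 (r = 0.51, p = 0.00708, adjusted p = 0.0297, rho = 0.49, p = 0.00546, adjusted p = 0.0406).

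Igfbp1 went against Igfals (r = -0.54, p = 0.00658, adjusted p = 0.0297, rho = -0.48, p = 0.0106, adjusted p = 0.0406). So did Igfbp7 against Igfals (r = -0.60, p = 0.00452, adjusted p = 0.0297, rho = -0.47, p = 0.00827, adjusted p = 0.0406) and Igfbp3 against Igfbp5 (r = -0.48, p = 0.00935, adjusted p = 0.0327, rho = -0.45, p = 0.0137, adjusted p = 0.041). All levels share the library total.

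After removal of the difference between number runs within groups, r was 0.66 for Igfbp3 and Igfbp7, 0.57 for Igfbp1 and Igfbp3, 0.53 for Igfbp1 and Igfbp7, -0.58 for Igfbp1 and Igfals, -0.58 for Igfbp7 and Igfals, and -0.42 for Igfbp3 and Igfbp5. Leaving out the 2 mice farthest from the median in the first-named gene of each pair, r in the same order was 0.67, 0.54, 0.56, -0.53, -0.34 and -0.44. Mice that stood apart only in the second gene were kept, so these values depend on which gene was named first. The relation of Igfbp7 and Igfals was thus weaker without the 2 mice farthest in Igfbp7. Without the 4 mice picked for their high Igfbp1, r in the same order was 0.52, 0.40, 0.32, -0.29, -0.34 and -0.42. Each of these values was weaker than over all 36 mice, including those of the pairs with Igfbp1. They are a description with no test, since the choice used the Igfbp1 levels. Igfbp1 and its neighbour Igfbp3 went together, whereas the neighbours Igfbp2 and Igfbp5 had r = -0.09 (p = 0.663, permutation test).

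The ligand Igf1 was higher in fed and fasted WT/Y657* liver, the secreted protease Htra1 was higher in fed and refed mice, and the clearance receptor Igf2r was lower in fed mice. Of 16 genes listed as ligands, receptors, proteases and further binding proteins, 10 were expressed enough to be tested. Of these, 2 were higher and 1 lower in fed WT/Y657* mice, 1 higher in fasted and 1 higher in refed mice. The shares of all genes called were 2.37% in fed, 13.1% in fasted and 0.0287% in refed mice, and the count in fasted mice did not exceed its share. The list, like the others here, was chosen with earlier results of these data known. Its counts beside these shares are thus a description and not a test. The median log2 fold change of the 10 was 0.24, 0.05 and 0.08 in fed, fasted and refed mice, beside 0.01, 0.00 and 0.01 for all genes. In the mean over the 3 states, a contrast chosen after the data were seen, 4 of the 10 were higher and 2 lower. That contrast called 11.1% of all genes. Igf1 averaged 597 CPM in fed WT/Y657* and 479 CPM in fed wild-type mice (log2 fold change 0.32 ± 0.09, adjusted p = 0.0378), 545 and 459 CPM in fasted mice (0.25 ± 0.09, adjusted p = 0.0494), and 470 and 470 CPM in refed mice (adjusted p = 0.999). Htra1 averaged 3.76 and 1.86 CPM in fed mice (1.01 ± 0.23, adjusted p = 0.0179) and 2.18 and 0.68 CPM in refed mice (1.65 ± 0.26, adjusted p = 0.00349). Igf2r averaged 94.7 and 130 CPM in fed mice, where it fell by 0.46 ± 0.10 on the log2 scale (adjusted p = 0.00968), and its fasting response differed between genotypes by 0.45 (adjusted p = 0.0487).

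Igf1r (1.94 to 4.04 CPM, group means) and Insr (128 to 208 CPM) were not called between genotypes in any state, with adjusted p from 0.2 to 0.717 and from 0.163 to 0.478. In each state the mean of Igf1r was higher and that of Insr lower in WT/Y657* than in wild-type mice. Both fell on refeeding in each genotype, Insr by 0.38 (adjusted p = 0.00118) and 0.46 (adjusted p = 0.000115) and Igf1r by 0.63 (adjusted p = 0.0311) and 0.78 (adjusted p = 0.00573), the wild-type value first. Igf2, Pappa, Pappa2, Stc1, Stc2 and Igfbpl1 were too low to test.

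Of 7 tested genes of growth hormone signalling, 2 were lower in fasted WT/Y657* mice and 0 were called in fed or refed mice by the edgeR test, where 925 of all 13945 genes were lower in fasted mice (13.1% called in either direction). Their median log2 fold change in fasted mice was -0.28, and in the mean over the 3 states 1 of the 7 was lower and 0 higher. Ghr, the growth hormone receptor, averaged 387 CPM in fasted WT/Y657* and 520 CPM in fasted wild-type mice (-0.43 ± 0.12, adjusted p = 0.0166). Stat5b averaged 50.9 and 68.9 CPM (-0.43 ± 0.08, adjusted p = 0.000475), and its fasting response differed by -0.54 (adjusted p = 0.00594). Of 15 regulators of transcription listed as acting on Igfbp1 or Igfals, 5 were lower in fasted WT/Y657* mice and 1 in fed mice. Of all 13945 genes 925 and 161 were lower, and the medians over the 15 were -0.15 and -0.09. The 5 and 1 are given by name where stated here. Those lower in fasted mice included Foxa2 (-0.93, adjusted p = 0.00142), Ppara (-0.55, adjusted p = 0.000328), Nr3c1 (-0.38, adjusted p = 0.000769) and Foxo3 (-0.34, adjusted p = 0.00792, and -0.31 in fed mice, adjusted p = 0.0458). The fasting and refeeding responses of Foxa2 differed between genotypes by -1.11 (adjusted p = 0.0146) and 0.97 (adjusted p = 0.047). In the mean over the 3 states, 4 of the 15 were lower and 0 higher, beside 11.1% of all genes called.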

How the data were processed

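Liver RNA of 36 mice was sequenced as stranded total RNA libraries with single reads of 50 bases. The deposited table holds estimated counts per gene made by the authors, and 3.64% of the nonzero values were not whole, so values were rounded. The submitters' processing notes name Cuffdiff, SAMtools, featureCounts, edgeR and mm9 (versions not given in the sources used here), whereas 99.7% of the gene positions in the table overlapped the same gene on GRCm38, which is used for coordinates. A second deposited table of fitted counts was not used.

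CPM were computed here with TMM scaling. Genes passing filterByExpr (13945) were tested with edgeR 4.0.16 (quasi-likelihood, robust, all 36 libraries, 1 coefficient per group) in R 4.3.3, with Benjamini-Hochberg adjustment and a threshold of 0.05. The code was tested on simulated data. Alternatives were the edgeR likelihood ratio test, DESeq2 1.42.0, limma-voom 3.58.1, other scalings and filters, only the groups compared, the number runs as covariate or separately, and each mouse left out. Named genes were the 7 members, the 3 genes of highest Pearson r on log2 CPM with each, and listed genes that were called. The values of 1 listed gene are not reported here. The members and lists were chosen with earlier results of these data known. Promoters came from RefSeq on GRCm38.p6, and protein sequences were not used here. Library totals were 8839488 to 19542775 counts. Each group held 6 mice. The SE of a fold change comes from the fit over all 36 libraries, in which the groups share 1 estimate of the spread. It is thus not the spread of the mice in the groups compared.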

Additional observations from a re-analysis of the deposited data

Results flagged for a closer look

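Of 42 groups of 6 values (7 members in 6 groups), 4 held a mouse whose distance from the others passed Dixon's 95% limit, and chance gives about 1 in 20 groups. Igfbp1 stood at 126 CPM in the fed wild-type mouse 6, with the next mouse at 31.7 CPM. Igfbp2 stood at 466 CPM in the refed WT/Y657* mouse 1, with the next at 335 CPM. Igfbp5 stood at 11.3 CPM in the fed wild-type mouse 2, with the next at 6.99 CPM. Igfbp7 stood at 79.3 CPM in the fasted WT/Y657* mouse 3, with the next at 56.0 CPM.

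The fasting response of Igfbp5 differed between genotypes by -1.33 on the log2 scale (edgeR quasi-likelihood test of the interaction, adjusted p = 0.0153).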

How the results depend on the processing

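The counts of called members between fed genotypes (1) became 2 with the likelihood ratio test, DESeq2, limma-voom, RLE scaling, library size scaling, at least 10 counts in every library, and without the 4 mice that stood apart in Igfbp1, and 0 with no filter, only the groups compared, or neighbouring mouse numbers. Between fasted genotypes (2) the count was 1 without those 4 mice, 1 in the lower number run and 0 in the upper. Between refed genotypes (0) it was 1 with the likelihood ratio test and with DESeq2. On fasting in wild-type mice (1) it was 2 with DESeq2, library size scaling and without the 4 mice. On refeeding it was 1 and 0 in the lower and upper run in wild-type mice (2), and 0 in the upper run in WT/Y657* mice (3). The difference of fasting responses (1) gave 2 without the 4 mice. Per kb of the longest transcript, Igfbp2 was at 277, Igfbp3 at 8.45, Igfbp4 at 295 and Igfals at 55.2 CPM per kb, with the same order of the 7. Leaving out each mouse gave 0 to 2 calls between fed genotypes, 1 to 2 fasted and 0 to 0 refed, 1 to 2 and 3 to 4 on fasting, 2 to 2 and 3 to 4 on refeeding, 2 to 4 and 4 to 4 for refed against fed (wild-type and WT/Y657*), 1 to 1 and 0 to 0 for the differences of responses, and 2 to 3 for the mean of 3 states. Of 1071 single values of members under other settings, 1022 kept their side of the threshold and direction, 17 lost a call, 32 gained one and 0 reversed a call. The 4 mice were chosen by their Igfbp1 levels after these were seen, so calls of Igfbp1 without them are no test. The cause was not tested, and runs hold 3 mice a group. No paired analysis was possible because each mouse has a number of its own.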
